A study of Mus musculus with 4 samples.

Results

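The early neuronal differentiation genes are 9 genes that are switched on as neural precursors leave the cell cycle and become neurons: Dcx, Tubb3, Map2, Stmn2, Elavl3, Elavl4, Gap43, Neurod1 and Rbfox3. They were taken by gene symbol from a table of 55487 mouse gene IDs, and each symbol matched 1 ID. Transcript levels were measured in 4 libraries of primary neural cells from brain, which were grown as neural stem cells from the neocortex of mid-gestation embryos. The control carried floxed Tut1 (Tut1f/f) and received empty lipid nanoparticles (empty LNP). The Tut1 KO library had the same genotype and received particles with mRNA for Cre recombinase, an enzyme that removes DNA between loxP sites (Cre-LNP). The Trp53 KO library was p53f/f with Cre-LNP, and the double KO library was Tut1f/f;p53f/f with Cre-LNP. Each group held 1 library, so no value has a replicate error and no p-value is given. How many animals or cultures stood behind a library, and the sex of the embryos, were not given in the sources used here.

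Neural stem cells of the cortex divide and keep neuronal genes low. When a cell commits to the neuronal fate, proneural transcription factors of the basic helix-loop-helix class switch on a programme that includes Neurod1, followed by cytoskeletal genes such as Dcx and Tubb3, by RNA-binding proteins of the ELAV-like and RBFOX families, and later by genes of the synapse. Outside neurons, the repressor REST and its cofactors hold many of these genes down, and the splicing regulator Ptbp1 blocks neuronal splicing. Some of the genes are also transcribed in precursors and glia, so their RNA alone does not define a neuron.

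Levels are in TPM, transcript abundances corrected for transcript length and scaled to a fixed total per library. This is meant to let genes be set side by side within a library. Which platform gave the values is uncertain, and whether the length correction suits it was not tested. Levels compared between genes carry that limit. Differences are of log2(TPM + 1), where 1 TPM was added to every value, which understates the change of low genes. A gene entered a comparison with at least 1 TPM in at least 1 of its 2 libraries, and was called when it was higher or lower by 1 or more. The depth of the libraries cannot be read from the table, because TPM keeps no read total.

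The cultures had the markers of neural stem cells. All 13 of the stem cell markers reached 1 TPM in every library, with sums of 10787 to 12730 TPM. Fabp7 (7902 to 9441 TPM) and Vim (1693 to 2039 TPM) supplied most of these sums. Markers of microglia (sum 0.267 to 0.747 TPM), endothelium (0.703 to 1.17 TPM) and red blood cells (at most 0.158 TPM) were near 0. Of the astrocyte markers 5 of 7 reached 1 TPM in every library (sum 299 to 326 TPM), without Gfap and Aqp4. Of the markers of intermediate progenitors, the step between stem cell and neuron, 2 of 6 did (Btg2 and Insm1). The 6 summed to 64.9, 74.4, 46.4 and 46.0 TPM in control, Tut1 KO, Trp53 KO and the double KO. Btg2 supplied most of each sum, at 60.6, 71.0, 41.7 and 42.3 TPM in the same order. Eomes, Neurog1, Neurog2 and Neurod4 were under 1 TPM in every library. Of the oligodendrocyte lineage markers 6 of 8 reached 1 TPM in every library (1565 to 1765 TPM). Among them, Olig1 (895 to 1029 TPM) and Olig2 (530 to 619 TPM) were above the stem cell markers Nes (313 to 417 TPM) and Sox2 (293 to 385 TPM). Of the fibroblast and mural markers 1 of 6 reached 1 TPM in every library (1.71 to 2.76 TPM). Tut1 was at 12.2, 29.8, 12.5 and 13.7 TPM in control, Tut1 KO, Trp53 KO and the double KO, so it was not lower in the libraries labelled as lacking it. By the study's description Cre removes a single exon from the Tut1 mRNA, so a value for the whole gene need not fall and does not check the deletion, and directions drawn from the library labelled Tut1 KO or double KO rest on the label. The paper reports efficient deletion in Tut1f/f neural stem cells given Cre mRNA, measured on that exon. That measurement was not analysed here. Trp53 was at 120, 100, 39.7 and 41.9 TPM in the same order, lower in both libraries labelled as lacking it. Xist, the RNA of the inactive X chromosome, was at 188 and 204 TPM in Tut1 KO and Trp53 KO and near 0 in the others, whereas the Y-linked gene Ddx3y was at 24.4 and 25.7 TPM in control and double KO and listed at 0 in the others. By these genes, double KO minus control was the only one of the 5 comparisons made within a sex, so the effects of sex and genotype cannot be told apart in the other 4 comparisons, nor in the difference between both Tut1 comparisons.

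The 9 genes covered a wide span of levels in these cultures. Gap43 and Map2 were abundant, Elavl4, Tubb3, Elavl3, Rbfox3 and Dcx were low, and Neurod1 and Stmn2 were under 1 TPM in all 4 libraries. The 9 genes summed to 899 TPM in control, 701 in Tut1 KO, 731 in Trp53 KO and 734 in double KO, which is 0.0701 to 0.0899% of all transcripts. Gap43 and Map2 made up 92.7 to 95.8% of that sum. In bulk RNA, fewer cells of a type and less RNA per cell cannot be told apart, so the sums do not count neurons.

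**Figure D1:**
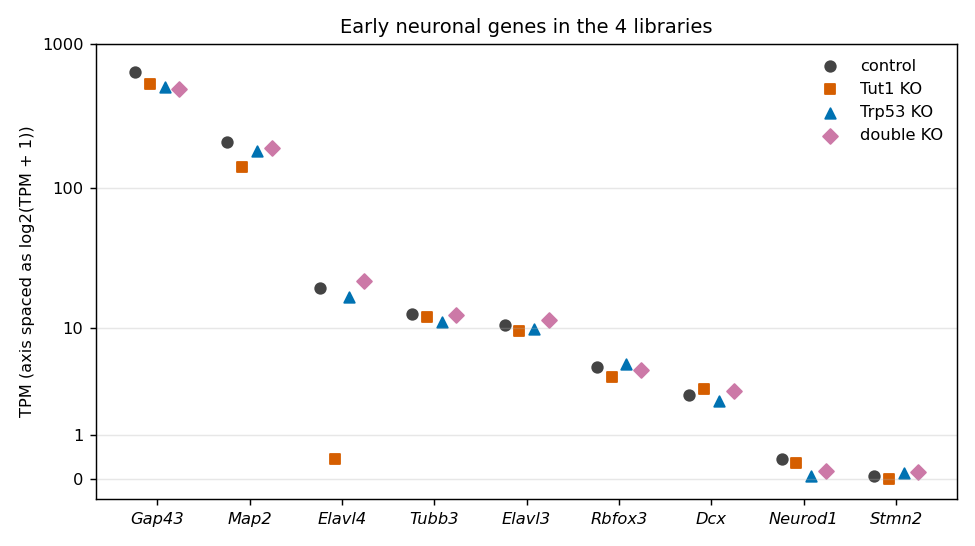
TPM of the 9 early neuronal genes (vertical axis, spaced as log2(TPM + 1)) in the 4 libraries, 1 point a library, ordered by mean level. Elavl4 in Tut1 KO (0.370 TPM) lies far below its other 3 points (16.9 to 22.0 TPM), whereas the points of each other gene lie close together.

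Gap43 encodes a membrane phosphoprotein of the axonal growth cone. It was at 640 TPM in control, 530 in Tut1 KO, 504 in Trp53 KO and 490 in double KO. The control was thus the highest library and the 3 Cre-treated libraries were close to one another. Gap43 stood above 98.8 to 99.0% of the genes listed above 0 in each library. The gene (ENSMUSG00000047261) lies on chromosome 16 at 42248442 to 42340651, minus strand, in build GRCm38.

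Map2 encodes a protein that binds and bundles dendritic microtubules. Its level was 208 TPM in control, 141 in Tut1 KO, 181 in Trp53 KO and 191 in double KO. The library labelled Tut1 KO was the lowest for this gene. Among the genes listed above 0, Map2 stood above 95.5 to 97.0% in each library. The gene (ENSMUSG00000015222) lies on chromosome 1 at 66175273 to 66442583, plus strand, and has 24 annotated transcripts, whose shares were not analysed here.

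Tubb3 encodes the neuronal class III beta-tubulin. It was at 12.6, 12.05, 10.98 and 12.5 TPM in control, Tut1 KO, Trp53 KO and the double KO, the narrowest span of the 7 genes that reached 1 TPM (0.19 on the log2 scale). Dcx encodes doublecortin, which stabilises microtubules in migrating neurons, and was at 2.77, 3.13, 2.42 and 3.03 TPM in the same order. Dcx (ENSMUSG00000031285) lies on the X chromosome (143855842 to 143933311, minus strand), and its level in the Xist-expressing libraries (3.13 and 2.42 TPM) surrounded that in the Y-expressing ones (2.77 and 3.03 TPM). Stmn2, a stathmin that destabilises microtubules in growing axons, was at 0.0442 TPM in control, listed at 0 in Tut1 KO, and at 0.0894 and 0.112 TPM in Trp53 KO and double KO. Stmn2 was thus at or near 0 throughout. Tubb3 (ENSMUSG00000062380) lies on chromosome 8 at 123411424 to 123422015 and Stmn2 (ENSMUSG00000027500) on chromosome 3 at 8509360 to 8561606, both on the plus strand.

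Elavl3 and Elavl4 encode neuronal ELAV-like proteins (HuC and HuD), which bind AU-rich stretches of RNA and act on splicing, stability and translation. Elavl3 was at 10.46, 9.45, 9.81 and 11.5 TPM in control, Tut1 KO, Trp53 KO and the double KO. Elavl4 was at 19.8 TPM in control, 0.370 in Tut1 KO, 16.9 in Trp53 KO and 22.0 in double KO. It was therefore the higher of the pair in every library except that labelled Tut1 KO. Elavl4 stood above 71.2 to 75.4% of the genes listed above 0 in the other 3 libraries and above 29.5% in Tut1 KO. Rbfox3 encodes NeuN, a splicing regulator of neuronal nuclei, and was at 4.90, 3.998, 5.18 and 4.596 TPM. Neurod1, the basic helix-loop-helix activator of the neuronal programme, was at 0.359, 0.273, 0.0339 and 0.136 TPM, all under the level at which a gene was compared. Rbfox3 (ENSMUSG00000025576) lies on chromosome 11 at 118489762 to 118911597, Elavl3 (ENSMUSG00000003410) on chromosome 9 at 22015005 to 22052023 and Neurod1 (ENSMUSG00000034701) on chromosome 2 at 79452521 to 79456751, all on the minus strand. The values of Elavl3 and Neurod1 are less certain than the others, because exons of Elavl3 overlap those of Gm49318 and exons of Neurod1 those of Cerkl on the same strand.

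In the order of mean levels, from Gap43 through Map2, Elavl4, Tubb3, Elavl3, Rbfox3, Dcx and Neurod1 to Stmn2, 3 pairs of neighbours had ranges that overlapped over the 4 libraries. These were Elavl4 with Tubb3, Tubb3 with Elavl3, and Neurod1 with Stmn2. Tubb3 was nevertheless above Elavl3 in 4 of 4 libraries. The other neighbours were separated in every library.

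The genes differed in how far they ranged over the libraries. On the log2(TPM + 1) scale the range was 4.07 for Elavl4, 0.56 for Map2, 0.39 for Gap43, 0.31 for Rbfox3, 0.27 for Dcx, 0.26 for Elavl3 and 0.19 for Tubb3. The median range of these 7 genes was 0.31, beside 0.44 over the 15095 genes with at least 1 TPM in some library. A range of at least 1 was found for 1 of the 7, beside 11.5% of the 15095.

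Elavl4 carries the one large difference of the group, so its gene model and start regions are given here. The gene (ENSMUSG00000028546) lies on chromosome 4 at 110203722 to 110351909, minus strand, with 12 annotated transcripts. Its longest transcript has 4149 bases and a GC content of 38.9%. Its exons overlap no other gene on the same strand, and 0 of the 4100 runs of 50 bases in that transcript occur in transcripts of other genes. RefSeq lists several starts of Elavl4, and the 250 bases before a distal and before a proximal start are shown beside those of Elavl3, all read 5′ to 3′ on the gene's strand from build GRCm38.p6. Capitals mark the E-boxes CAGCTG and CAGATG (either strand), the letters that proneural factors are known to bind.
Elavl4, distal start, chr4:110351912-110352161, minus strand: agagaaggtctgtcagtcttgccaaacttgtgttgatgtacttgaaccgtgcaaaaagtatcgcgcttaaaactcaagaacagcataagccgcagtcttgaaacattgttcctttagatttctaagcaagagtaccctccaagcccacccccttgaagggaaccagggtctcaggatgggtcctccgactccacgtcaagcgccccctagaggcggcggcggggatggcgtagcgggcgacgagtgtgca
Elavl4, proximal start, chr4:110287528-110287777, minus strand: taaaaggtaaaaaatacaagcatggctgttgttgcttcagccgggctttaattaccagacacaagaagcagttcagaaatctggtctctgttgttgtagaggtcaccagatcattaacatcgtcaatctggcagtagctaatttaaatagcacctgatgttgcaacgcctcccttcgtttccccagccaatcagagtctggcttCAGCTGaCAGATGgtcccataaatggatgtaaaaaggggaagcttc
Elavl3, chr9:22052024-22052273, minus strand: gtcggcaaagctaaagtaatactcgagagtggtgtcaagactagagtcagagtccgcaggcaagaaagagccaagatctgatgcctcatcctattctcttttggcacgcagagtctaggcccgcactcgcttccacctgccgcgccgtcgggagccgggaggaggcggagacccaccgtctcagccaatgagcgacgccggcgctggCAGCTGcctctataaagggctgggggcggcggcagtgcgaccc

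The distal window of Elavl4 held neither E-box and had a GC content of 53.6%. The proximal window held CAGCTG and CAGATG 1 base apart and had a GC content of 44.0%. Another proximal window of Elavl4, not shown, held CAGATG and no CAGCTG. The window of Elavl3 held 1 CAGCTG and had a GC content of 61.6%. The windows of Map2, Neurod1, Tubb3, Rbfox3 and Dcx held neither E-box. Of 32851 mouse windows of the same length, 13.0% held CAGCTG and 14.4% held CAGATG, so such letters are common and a match is a description, not a binding site. Windows for Stmn2 and Gap43 were not analysed here. The deposited values are per gene, and which start was used in which library was not analysed here.

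The first comparison asks how the early neuronal genes differed with the Tut1 label when Trp53 was intact (Tut1 KO minus control), and here the treatment, Cre-LNP against empty LNP, differed too. Elavl4 fell by 3.93 on the log2 scale, from 19.8 to 0.370 TPM, a 53.7-fold lower TPM. The size rests on a level under 1 TPM at unknown depth, and was -5.41 with 0.1 TPM added to each value and -2.21 with 5 TPM added. It had rank 12 from the lowest among the 14640 genes compared. Elavl4 was the only one of the 7 genes past the threshold, beside 4.73% of all genes, with 2.84% lower and 1.89% higher. Map2 differed by -0.56, Gap43 by -0.27, Rbfox3 by -0.24, Elavl3 by -0.13, Tubb3 by -0.06 and Dcx by 0.13. The median of the 7 was -0.24, and -0.19 without Elavl4, beside -0.09 over all genes. A negative difference was found for 6 of the 7 genes and for 8783 of all 14640.

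The second comparison put the Tut1 label on a Trp53-deleted background, with Cre-LNP in both libraries (double KO minus Trp53 KO). None of the 7 genes was past the threshold, beside 3.87% of all genes (1.89% higher and 1.97% lower). Elavl4 was at 22.0 against 16.9 TPM, a difference of 0.36. Dcx differed by 0.24, Elavl3 by 0.21, Tubb3 by 0.18, Map2 by 0.07, Gap43 by -0.04 and Rbfox3 by -0.14. The median was 0.18, beside 0.04 over all genes. The value for Elavl4 thus had the opposite sign to the first comparison, and the difference between the comparisons was -4.29, which no replicate allows to be tested.

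**Figure D2:**
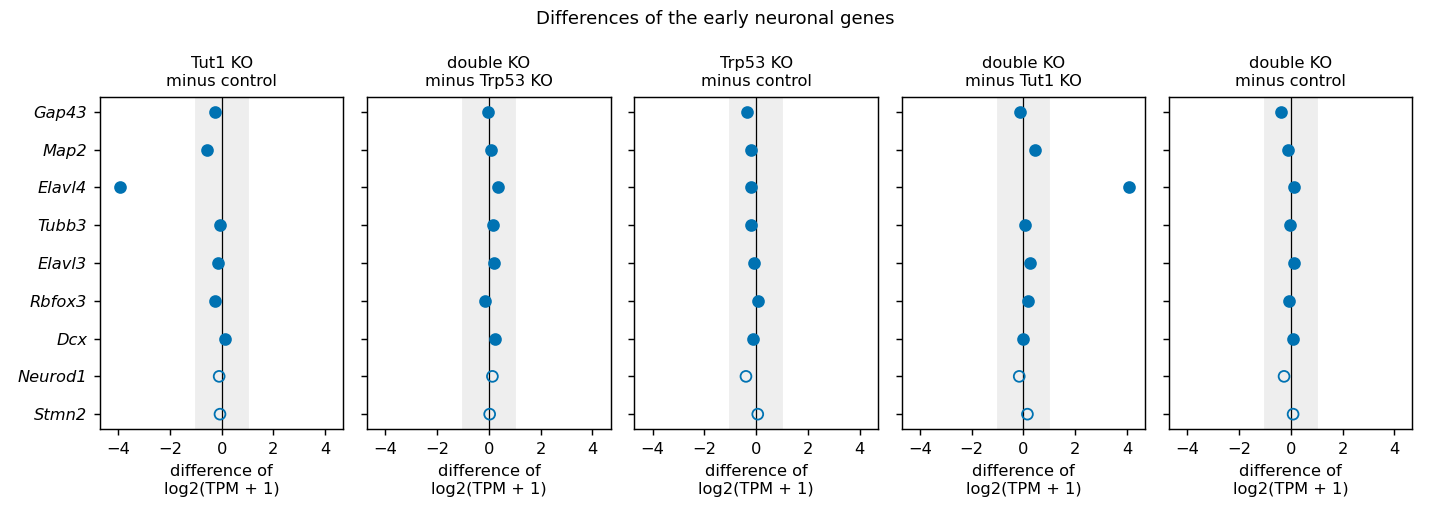
Differences of log2(TPM + 1) for the 9 genes (rows) in the 5 comparisons (panels), 1 library against 1, with the grey band marking differences under the threshold of 1 and open circles the genes under 1 TPM in all libraries. Elavl4 lies outside the band in both comparisons with the Tut1 KO library (-3.93 and 4.07) and inside it in the other 3.

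The Trp53 label was compared in the same manner. In Trp53 KO minus control none of the 7 genes was past the threshold, beside 4.42% of all genes (2.05% higher and 2.37% lower). Gap43 differed by -0.34, Elavl4 by -0.22, Map2 by -0.20, Tubb3 by -0.19, Dcx by -0.14, Elavl3 by -0.08 and Rbfox3 by 0.07. The median was -0.19, beside -0.05 over all genes. These libraries differ in treatment and in Xist and Y-linked RNA as well as in genotype.

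In double KO minus Tut1 KO, where both libraries received Cre-LNP, Elavl4 rose by 4.07 (0.370 to 22.0 TPM, 59.5-fold), at rank 12 from the highest of 14601 genes. It was 1 of 7 past the threshold, beside 4.64% of all genes (2.43% higher and 2.21% lower). Map2 differed by 0.43, Elavl3 by 0.26, Rbfox3 by 0.16, Tubb3 by 0.05, Dcx by -0.04 and Gap43 by -0.11. The value of Elavl4 rests on the same Tut1 KO library as in the first comparison and is no second measurement of it.

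In double KO minus control none of the 7 was past the threshold, beside 4.23% of all genes (1.91% higher and 2.31% lower). Gap43 differed by -0.39, Map2 by -0.12, Rbfox3 by -0.08, Tubb3 by -0.01, Dcx by 0.10, Elavl3 by 0.13 and Elavl4 by 0.14. The median of the 7 and that of all genes were both -0.01. In the 3 comparisons without the Tut1 KO library, the 7 genes thus differed by no more than 0.39 in size.

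Elavl4 was set beside the other genes that were low in a single library, a count chosen after its value was seen. Of 8111 genes with at least 10 TPM in the other 3 libraries, 6 (0.0740%) were under 1 TPM in Tut1 KO. The same count was 1 of 7896 for control, 3 of 7952 for Trp53 KO and 3 of 7917 for double KO. Of the 6, 5 were protein-coding and shared no exons with another gene: Elavl4, Cldn12, Gopc, Rell1 and Asb7. The same restriction left 1 gene for control (Macroh2a2), 2 for Trp53 KO (Taok1 and Rlim) and 0 for double KO. Without that restriction, 4 of the 8111 genes were at least 20-fold lower in Tut1 KO than in any of the other 3 libraries. That count was 1 for control, 3 for Trp53 KO and 3 for double KO. With the effect of GC content and length removed by a fit over all genes, the difference of Elavl4 in Tut1 KO minus control was -3.56.

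**Figure D3:**
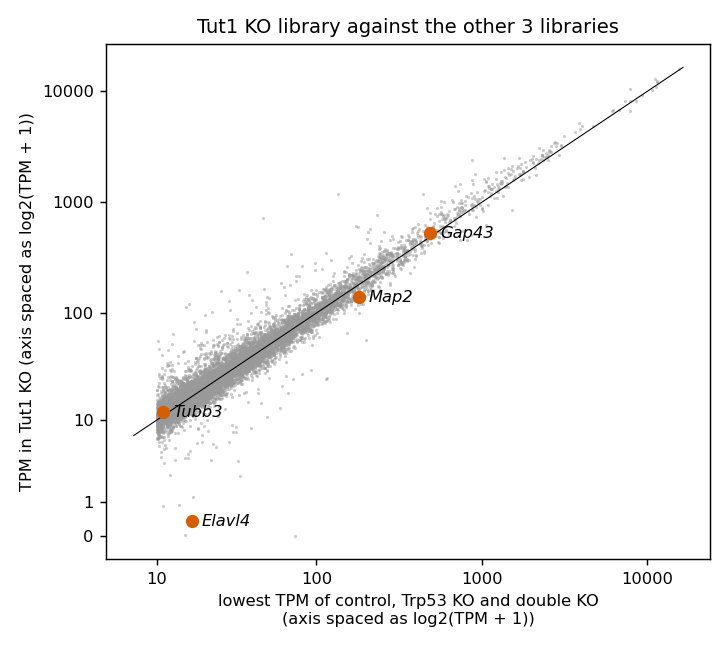
TPM in the library labelled Tut1 KO (vertical axis) against the lowest TPM of the other 3 libraries (horizontal axis), both spaced as log2(TPM + 1), for 8111 genes with at least 10 TPM in those 3, 1 grey point a gene, with a line of equality. Gap43, Map2 and Tubb3 (orange) lie near the line, and Elavl4 is among the 6 genes under 1 TPM in Tut1 KO.

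Relatives of the 9 genes, picked after values were seen, put their levels in context. Elavl1 (HuR), the ELAV-like protein found in most cell types, was at 100, 50.5, 81.5 and 73.4 TPM in control, Tut1 KO, Trp53 KO and the double KO. Elavl2 was at 8.58, 5.003, 6.78 and 7.13 TPM. All 4 ELAV-like genes had their lowest level in Tut1 KO, as had 38.6% of the 15095 genes with at least 1 TPM in some library. The same held for 4 of 4 microtubule-associated proteins, 2 of 4 stathmins, 1 of 3 growth cone phosphoproteins and 1 of 3 RBFOX genes. It held for 0 of 7 beta-tubulins, 0 of 3 genes of the doublecortin family and 0 of 4 NeuroD factors. These counts include Stmn2, Rbfox1 and the NeuroD factors, which were under 1 TPM in all libraries and lie outside the 38.6%. Stmn2 counted as lowest in Tut1 KO on a value listed at 0. Elavl1 differed by -0.98 between Tut1 KO and control, just short of the threshold, and Elavl2 by -0.68. Elavl4 made up 14.2% of the ELAV-like sum in control, 0.565% in Tut1 KO, 14.7% in Trp53 KO and 19.3% in double KO.

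Among beta-tubulins, which build microtubules, Tubb3 ranked last of 7 and made up 0.269 to 0.320% of their sum. Tubb2b (1417 to 1612 TPM), Tubb5 (1223 to 1397 TPM) and Tubb2a (681 to 801 TPM) supplied most of it. Dcx likewise made up 1.60 to 2.29% of its family, beside its relatives Dclk2 (87.2 to 102 TPM) and Dclk1 (40.7 to 63.7 TPM). Among stathmins, Stmn1 was at 498 to 620 TPM and Stmn3 at 119 to 163 TPM. Tubb3, Dcx and Stmn2 were thus each the least abundant of the relatives compared. Rbfox3 made up 13.3 to 17.0% of the RBFOX sum, below Rbfox2 (25.0 to 30.1 TPM). Neurod2 and Neurod6 were listed at 0 in all 4 libraries.

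Map2 and Gap43 had the highest mean level of their groups. Map2 made up 61.7 to 70.3% of the sum with Map4, Map1b and Mapt, and had the highest level of these in every library. Gap43 made up 32.9 to 38.5% of the sum with Basp1 and Marcks, other growth cone phosphoproteins, and was above both except in double KO, where Marcks was at 558 TPM and Gap43 at 490.

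**Figure D4:**
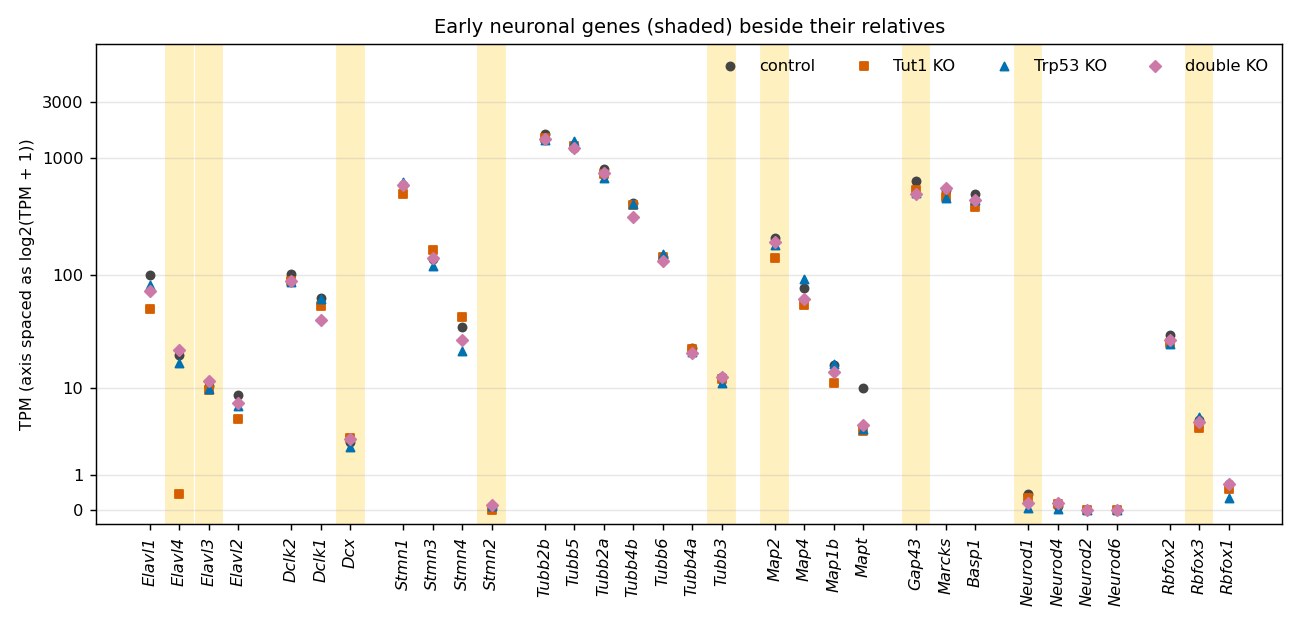
TPM of the early neuronal genes (shaded) and of related genes (vertical axis, spaced as log2(TPM + 1)) in the 4 libraries, 1 symbol a library, grouped by family. Dcx, Stmn2, Tubb3 and Neurod1 are low beside abundant relatives or share a family near 0, whereas Map2 and Gap43 have the highest means of theirs (in double KO, Marcks is above Gap43).

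The other steps of the neuronal programme were read from 5 gene lists. The list of 25 proneural and neurogenic genes held mostly transcription factors, but also others such as Btg2, Dll1 and Dll3. Of the 25, 10 reached 1 TPM in every library and 14 stayed under 1 TPM in all. Sox4 (144 to 176 TPM), Btg2 (41.7 to 71.0 TPM) and Hes6 (40.2 to 59.3 TPM) were among the most abundant of the list. None of the list was past the threshold in any of the 5 comparisons, and its median was -0.23 in the first comparison and -0.0093 in the second.

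Of 26 genes of the neuronal cytoskeleton and growth cone, 23 reached 1 TPM in every library, led by the tubulin Tuba1a (2019 to 2174 TPM). Mapt, which encodes the axonal microtubule protein tau, was at 9.96 TPM in control, 3.68 in Tut1 KO, 3.94 in Trp53 KO and 4.26 in double KO. It was the only gene of the list past the threshold, lower than control in all 3 Cre-treated libraries, with differences of -1.23 (Tut1 KO), -1.15 (Trp53 KO) and -1.06 (double KO). The control is shared by those 3 comparisons, and it also differs from the other libraries in treatment. All 3 calls of Mapt were lost with 5 TPM added to each value or a minimum of 10 TPM. The median of the list was -0.20 in the first comparison and 0.05 in the second.

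Of 12 neuronal RNA-binding proteins, 9 reached 1 TPM in every library and none was past the threshold. Ptbp2, the neuronal relative of Ptbp1, was at 94.0, 57.1, 74.2 and 80.2 TPM in control, Tut1 KO, Trp53 KO and the double KO, and Khdrbs3 was at 102, 68.2, 115 and 80.9 TPM. Nova1, a splicing regulator of neurons, was at 36.2 to 45.0 TPM. The median of the list was -0.23 in the first comparison and 0.11 in the second.

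Of 22 synaptic and mature neuronal genes, 16 reached 1 TPM in every library. Snap25, a component of the vesicle fusion machinery, was at 9.65, 3.38, 10.5 and 6.06 TPM. It was lower in Tut1 KO than in control (difference -1.28), the only call of the list in any comparison. That call was lost with 5 TPM added to each value, a minimum of 10 TPM or the GC correction. Uchl1 (114 to 137 TPM), Dlg4 (60.3 to 87.0 TPM), Vamp2 (55.5 to 77.9 TPM) and Gria2 (39.6 to 56.8 TPM) had the highest means. The median of the list was -0.10 in the first comparison and -0.19 in the second.

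All but 1 of 19 repressors of neuronal genes reached 1 TPM in every library, among them Hdac2 (193 to 257 TPM), Ptbp1 (171 to 191 TPM), Id3 (168 to 190 TPM) and Hdac1 (155 to 176 TPM). Rest, named for its role and not by the naming rule, was at 9.13, 6.05, 8.61 and 8.48 TPM. Ctdsp2, a phosphatase that works with REST, was at 8.92, 53.9, 8.21 and 59.8 TPM in control, Tut1 KO, Trp53 KO and the double KO. It was called in both Tut1 comparisons, higher by 2.47 with Trp53 intact and by 2.72 with Trp53 deleted, and was higher by 2.62 in the double KO than in control. Its exons overlap the microRNA genes Mir26a-2 and Mir546 on the same strand, which makes its value uncertain. Exons of Tuba1a, Stmn1, Nova1 and Gria2, named above, also overlap other genes on the same strand. How far such overlaps change a value was not tested. Ctdsp2 was the only repressor past the threshold, and the median of the list was -0.01 in the first comparison and 0.04 in the second.

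**Figure D5:**
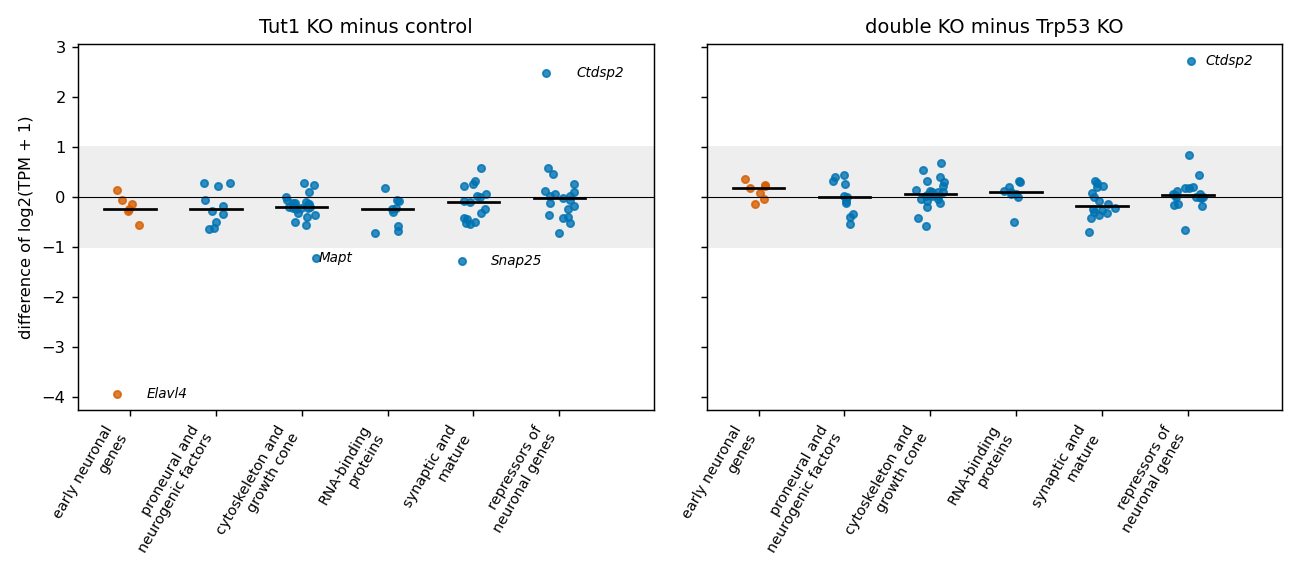
Differences of log2(TPM + 1) for the early neuronal genes (orange) and 5 related lists (blue) in both Tut1 comparisons, 1 point a gene, with black bars at the medians and grey bands marking differences under the threshold of 1. The medians lie between -0.24 and 0.18, and the genes outside the bands are Elavl4, Mapt, Snap25 and Ctdsp2.

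The genes with the most similar pattern were found by the distance between profiles of log2(TPM + 1) over the 4 libraries, each less its own mean, among 647 genes with at least 10 TPM in some library and a range of at least 1. Nearest to Elavl4 were Cldn12 (distance 0.23), Gopc (0.33) and Fignl1 (0.51). Cldn12 was at 15.2, 0.0130, 15.3 and 16.4 TPM in control, Tut1 KO, Trp53 KO and the double KO. Nearest to Map2 were Ivns1abp (0.34), mt-Nd4l (0.37) and Atp11b (0.38), although its own range of 0.56 was under that required of candidates. Gap43, Rbfox3, Dcx, Elavl3 and Tubb3 had ranges of 0.19 to 0.39, under the range of at least 1 required of candidates, so the search could not return a gene with their profile. Nearest to the mean of the 7 genes were Ivns1abp (0.23), Pou3f4 (0.25), Ccnk (0.26), Platr25 (0.28) and Zeb2 (0.28), although the range of that mean, 0.72, was also under the range required. Without Elavl4 the mean had a range of 0.19, and the search could not return a like gene.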

How the data were processed

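The deposited table holds TPM per Ensembl gene for 4 libraries, computed by the authors. The labels name Trimmomatic, HISAT2 and StringTie with build mm10, without versions or roles. The extract protocol names a stranded short-read mRNA kit, and the series text names long-read sequencing, so which platform gave the values is uncertain. Depth cannot be read from the table, and no counting interval was computed. Groups came from genotype and treatment labels. Differences of log2(TPM + 1), with 1 TPM added, were taken between single libraries in 5 comparisons, for genes with at least 1 TPM in at least 1 of them, and called at 1. With 1 library per group there was no test. Members and lists were chosen with earlier results of these data known. The text names all 9 members, from each list the 4 genes with the highest mean TPM and those past the threshold, and the genes nearest to the members' mean (5), to Elavl4 (3) and to Map2 (3). Those found for the other members are left out, because no candidate could have their small range. One gene of a list is not reported here. Relatives, genes low in 1 library, and Rest were chosen after values were seen. Gene models came from GENCODE M21 (GRCm38), and start regions from RefSeq (GRCm38.p6). Alternatives were a pseudocount of 0.1 or 5, a minimum of 10 TPM or none, medians set to 0, quantile normalization, a GC and length correction (values for 15072 of 15095 genes), a 1.5-fold threshold and, added later, leaving out Elavl4. The code was tested on simulated data. Python 3.11.15, numpy 2.4.6, pandas 2.3.3 and matplotlib 3.10.9 were used.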

Additional observations from a re-analysis of the deposited data

Results flagged for a closer look

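Elavl4 had opposite signs in the comparisons of the Tut1 label, -3.93 where Trp53 was intact and 0.36 where it was deleted, a difference of -4.29. With 1 library per group this difference was not tested. Both libraries of the second comparison held Elavl4 at 16.9 TPM or more, and the difference rests on the Tut1 KO library, at 0.370 TPM.

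Mapt, a gene of the cytoskeleton list, differed by -1.23 and 0.09 in the same comparisons, a difference of -1.32 that was likewise not tested. Its level was 9.96 TPM in control and 3.68 to 4.26 TPM in the other 3 libraries, which all received Cre-LNP.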

How the results depend on the processing

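A minimum of 10 TPM left 5 of the 7 members in each comparison. Of 270 differences of single members recomputed under the alternatives, all 270 kept their side of the threshold and 8 changed sign. Those 8 were small values of Tubb3, Elavl3 or Dcx. Changing the minimum alters only which genes are compared, so those recomputed differences could not move. A 1.5-fold threshold also keeps each difference, so no sign could change with it. Without Elavl4, 0 members were past the threshold in double KO minus Tut1 KO and 0 in Tut1 KO minus control. In double KO minus control, the members' median turned from -0.01 to 0.023 under quantile normalization and 0.0062 with the GC correction. Mapt and Snap25 were no longer called with a pseudocount of 5 or a minimum of 10 TPM, nor Snap25 with the GC correction. A 1.5-fold threshold added calls in the lists, among them 2 proneural factors and 2 RNA-binding proteins in Tut1 KO minus control, where none was called before.

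The count of all genes called depended on the settings. With a pseudocount of 0.1, a pseudocount of 5, a minimum of 10 TPM and a 1.5-fold threshold in turn, it was 1240, 292, 370 and 2220 instead of 693 in Tut1 KO minus control. It was 1009, 257, 288 and 1574 instead of 564 in double KO minus Trp53 KO, and 1078, 282, 347 and 1650 instead of 644 in Trp53 KO minus control. It was 1157, 281, 349 and 1966 instead of 678 in double KO minus Tut1 KO, and 1072, 248, 299 and 1642 instead of 619 in double KO minus control. In Tut1 KO minus control, 277 genes were higher and 416 lower, against 354 and 345 with medians set to 0. In Trp53 KO minus control, 299 were higher and 345 lower. They were 324 and 318 with medians set to 0, and 174 and 173 with a minimum of 10 TPM. In double KO minus Tut1 KO, 355 were higher and 323 lower, against 315 and 381 with medians set to 0, 322 and 362 with quantile normalization and 311 and 339 with the GC correction. No paired analysis was possible because each group held 1 library. The unknown depth limits the values under 1 TPM, Elavl4 in Tut1 KO included.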
